A study of Mus musculus with 15 samples.

Results

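The kinesin family was followed across mouse oocytes at the germinal vesicle and metaphase II stages. Members were the probe sets whose annotation gave a single symbol starting with Kif or Kifc and a digit, which was true of 104 of the 45037 probe sets that were not array controls. They named 41 of 18193 genes, and where a gene had several, the one with the highest mean over the 15 arrays stood for it. The choice used names and mean level and no difference between groups.

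All oocytes came from B6D2F1 hybrid females injected with PMSG, a gonadotropin that stimulates follicle growth, and each array held poly(A) RNA from a pool of 150 oocytes stripped of cumulus cells with hyaluronidase. In vitro matured metaphase II (MII) oocytes, cultured for 16 h, were from prepubertal females of day 20 (d20, n = 3), peripubertal females of day 26 (d26, n = 3) and adults of 7 to 8 weeks (n = 2). In vivo matured MII oocytes, collected after human chorionic gonadotropin, were from d26 females (n = 2) and adults (n = 3). Germinal vesicle (GV) oocytes, which still hold the intact nucleus of meiotic arrest, were from adults (n = 2). Nothing in the labels ties the pools of a group to different females, and the spread behind the p-values is that between these samples, which could be technical. Since RNA was caught by its poly(A) tail from bulk pools, the amount of an mRNA, its tail length and the number of cells carrying it cannot be told apart.

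Kinesins are motor proteins that use ATP to walk along, crosslink or take apart microtubules. Mitotic kinesins build the spindle, move chromosomes and organize the midzone, while transport kinesins carry vesicles, organelles and RNA, and a further set works in cilia and signalling. The oocyte assembles its meiotic spindles without centrioles and divides off a small polar body, and between GV breakdown and fertilization it makes almost no new transcripts, so mRNA levels in this window depend on stored message.

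By role, 15 members were mitotic, 17 were transport kinesins and 9 belonged to neither set. A linear model (limma) was run on quantile-normalized log2 intensities, in which a difference of 1 is a 2-fold change, and only probe sets in the upper 50% by mean were tested. That filter, at a normalized log2 intensity of 3.07, kept 12 mitotic, 16 transport and 6 other members, 34 in all. The 7 members below it were Kif2b, Kif14, Kifc5b, Kif1a, Kif7, Kif9 and Kif28, with means of 0.79 to 3.03, and they were given no test. Among the 34 tested members, 6 had a group mean below the filter level in at least 1 group, and no member passed through 1 group alone. Probe set names ending in _s_at or _x_at, as for Kif17, Kif22, Kif2c and Kifc1, mark probes that can also bind other transcripts. A member is called here when its Benjamini-Hochberg adjusted p over all 22519 tested probe sets was below 0.05.

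Values of the whole series that bear on the kinesins are these. Array brightness was uneven: both GV arrays had 9696 to 9819 probe sets above an intensity of 200, 9 MII arrays had 4882 to 6734, and 4 dim MII arrays had 2615 to 3042. Of the dim arrays, 2 were d26 in vitro (replicates 2 and 3), 1 was adult in vitro (replicate 2) and 1 was adult in vivo (replicate 1). All 12 oocyte markers had group means at or above the filter level in every group. Of 8 leukocyte markers, 8 in adult in vivo MII, 5 in adult in vitro MII and 3 in GV oocytes were at or above it. Their summed levels were 7.99 to 9.43 and 7.16 to 7.51, against 6.23 to 6.35, on the log2 scale. Of 13 cumulus and granulosa markers, 10 in adult in vivo MII, 8 in adult in vitro MII and 10 in GV oocytes were at or above it, with summed levels of 8.57 to 8.88 and 9.004 to 9.02, against 7.75 to 8.07. Of 7 oviduct markers the counts were 6, 3 and 5, and their sums, 11.47 to 12.37 and 11.72 to 11.75 against 10.45 to 10.75, came mostly from Cdh1, with group means of 11.61, 11.70 and 10.50. The oviduct markers Ovgp1 (7.36 and 4.18, against 3.73) and Krt18 (3.75 and 1.995, against 0.17) were also higher in both adult MII groups. Of the adult MII groups, only the in vivo one had Epcam and Pax8 higher than GV oocytes. Outside the adults, both were also higher in d20 in vitro MII (4.88 and 3.53) and d26 in vivo MII (5.02 and 3.67), against 4.40 and 3.25 in GV. In d26 in vitro MII both were lower than in GV (4.36 and 1.22). Single markers ran the other way, such as Krt8 (4.38 and 3.06, against 5.63), Foxj1 (2.26 and 1.07, against 2.86) and Fshr (2.86 and 3.50, against 4.28). The part of these cells in the kinesin differences was not tested.

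The promoters of 3 members are shown because they stand for the patterns met below, Kif22 and Kif17 being lower and Kif18a higher in MII than in GV oocytes. The windows are the 250 bases before the gene's start in RefSeq GRCm38.p6, 5′ to 3′ on the gene's strand. Kif22 is at chr7:127042421-127042670 on the minus strand, Kif18a at chr2:109280488-109280737 on the plus strand and Kif17 at chr4:138262001-138262250 on the plus strand. Capitals mark CCAAT and TTTGAA on either strand, short elements common in promoters of genes expressed around cell division.
Kif22: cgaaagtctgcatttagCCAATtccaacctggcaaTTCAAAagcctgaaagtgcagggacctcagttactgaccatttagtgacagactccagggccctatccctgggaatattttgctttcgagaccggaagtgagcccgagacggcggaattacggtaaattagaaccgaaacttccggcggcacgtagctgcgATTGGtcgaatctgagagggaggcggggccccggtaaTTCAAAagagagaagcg
Kif18a: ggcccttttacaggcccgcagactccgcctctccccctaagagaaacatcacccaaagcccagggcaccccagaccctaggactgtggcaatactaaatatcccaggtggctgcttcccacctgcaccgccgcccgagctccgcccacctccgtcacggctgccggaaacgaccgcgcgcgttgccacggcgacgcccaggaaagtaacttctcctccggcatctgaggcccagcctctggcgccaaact
Kif17: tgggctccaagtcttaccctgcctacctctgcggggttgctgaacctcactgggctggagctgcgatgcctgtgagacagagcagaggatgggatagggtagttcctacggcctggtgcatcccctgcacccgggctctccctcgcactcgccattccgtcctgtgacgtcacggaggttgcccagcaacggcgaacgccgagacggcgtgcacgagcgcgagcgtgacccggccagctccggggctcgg
Kif22 held CCAAT at 2 places, beginning 233 and 54 bases before the start, and TTTGAA at 2 places, 215 and 17 bases before it. Neither element was found in the other 2 windows, and none of the matches overlapped. Over the 33 members with a window, CCAAT was present in 9 of 14 mitotic kinesins (64.3%), 3 of 11 transport kinesins (27.3%) and 4 of 8 others (50%), against 34.5% of all 27025 windows. TTTGAA was present in 5 of 14 mitotic kinesins (35.7%), 0 of 11 transport kinesins and 2 of 8 others (25%), against 16.3% of all windows. A match of a few letters is a description and not a binding site.

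The first comparisons ask which kinesin messages differ between the mature and the immature adult oocyte. In adult in vivo MII oocytes 10 of the 34 tested kinesins rose and 3 fell relative to GV oocytes, while 18.3% of all 12028 tested genes rose and 12.3% fell. In adult in vitro MII oocytes 6 kinesins rose and 5 fell, while 18.4% of all tested genes rose and 12.9% fell. Called in either direction were 38.2% of kinesins against 30.6% of all genes for in vivo MII, and 32.4% against 31.3% for in vitro MII, so the family as a whole was called about as often as other genes. The median difference of the kinesins was 0.50 in vivo and -0.08 in vitro, against 0.26 and 0.13 over all tested genes. Both comparisons use the same 2 GV arrays.

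The scale used matters for the directions, because the GV arrays were the brightest. With intensities as deposited, 0 kinesins rose and 5 fell in vivo, while 0.0915% of all genes rose and 16.4% fell, and in vitro 0 rose and 13 fell, while 0.0499% rose and 29.2% fell. The median tested gene was then at -0.98 and -1.95. With arrays scaled to a common median, 4 rose and 5 fell in vivo, while 6.58% of all genes rose and 18.5% fell, and in vitro 3 rose and 12 fell, while 7.03% rose and 21.4% fell. The median gene was then at -0.21 and -0.54. The filter kept 35 kinesins on both of these scales, and the falls in vitro include the added one, Kif9. Median scaling differs from the deposited scale by a constant for each array, so relative to the median gene both are the same, and on that measure all 13 kinesins called in vivo and all 11 called in vitro lay on the same side as after quantile normalization. Median scaling ended the calls of Kif2a, Kif20b and Kif21a in both comparisons, and of Kif20a, Kif22, Kif1b and Kif5c in vivo. With intensities as deposited the sign itself turned for Kif2a, Kif20a and Kif5c in vivo and for Kif2a, Kif18a, Kif20b and Kif5b in vitro. The rises and falls given here are thus relative to the other transcripts of the oocyte.

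**Figure D1:**
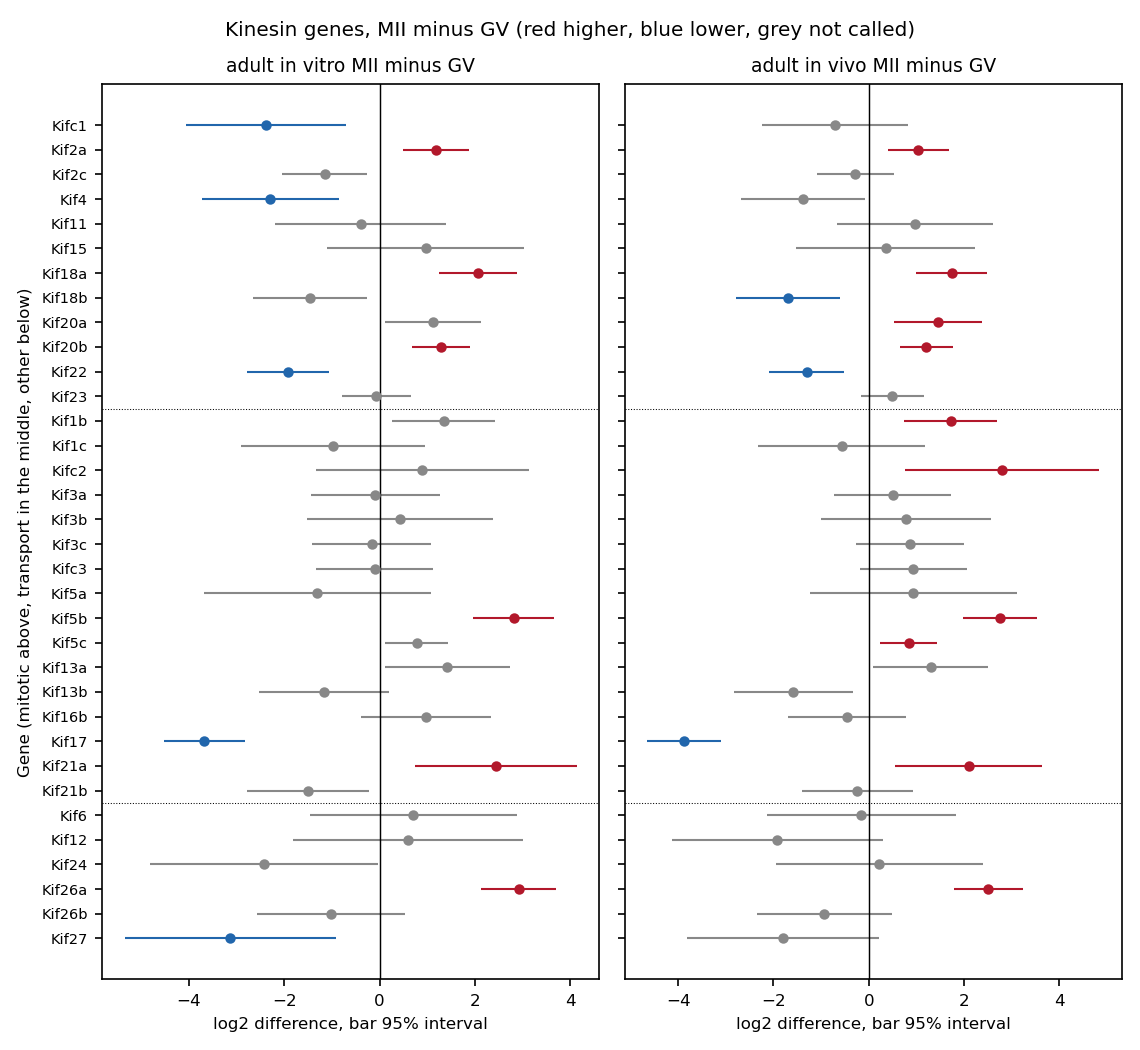
Log2 difference of each tested kinesin (points, bars are 95% intervals) between adult in vitro MII and GV oocytes (left) and between adult in vivo MII and GV oocytes (right), with red for called higher, blue for called lower and grey for not called. Kif17 lies farthest to the left in vivo at -3.87, and Kif5b and Kif26a lie beyond 2 in both panels.

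Mitotic kinesins moved in both directions. In adult in vivo MII oocytes 4 of 12 rose (Kif2a, Kif18a, Kif20a and Kif20b) and 2 fell (Kif18b and Kif22), with a median difference of 0.43. In adult in vitro MII oocytes 3 rose (Kif2a, Kif18a and Kif20b) and 3 fell (Kif4, Kif22 and Kifc1), with a median of -0.24. The share called was 50% in each comparison, beside 30.6% and 31.3% of all genes.

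Kif18a, a motor that gathers at the plus ends of kinetochore microtubules and damps chromosome movements, had normalized log2 intensities of 10.87, 10.002 and 10.03 in adult in vivo MII oocytes, against 8.63 and 8.49 in GV oocytes. In adult in vitro MII oocytes it had 10.36 and 10.89. All adult MII arrays were above both GV arrays, and the 8 arrays of MII oocytes from d20 and d26 females, at 9.47 to 10.64, were above them too. The difference was 1.74 ± 0.35 (SE) in vivo (3.34-fold, adjusted p = 0.00184) and 2.06 ± 0.38 in vitro (4.18-fold, adjusted p = 0.00106).

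Kif22, a chromokinesin that pushes chromosome arms away from the poles, moved the other way. It had 10.48, 10.99 and 10.79 in adult in vivo MII oocytes and 10.19 and 10.08 in adult in vitro MII oocytes, against 12.28 and 11.83 in GV oocytes. No MII array of any age reached the lower GV array, the highest being 11.06. The difference was -1.30 ± 0.37 in vivo (2.46-fold lower, adjusted p = 0.0163) and -1.92 ± 0.40 in vitro (3.78-fold lower, adjusted p = 0.00246). The in vivo call was lost when GV replicate 1 was left out (-1.09, adjusted p = 0.162). The other 2 tested Kif22 probe sets differed by -3.55 and -2.97 in vivo without being called, and by -5.25 and -3.99 in vitro, where both were called.

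Kif4, a chromokinesin that also shortens midzone microtubules with Prc1, had 8.67 and 6.90 in adult in vitro MII oocytes and 7.31, 9.45 and 9.33 in adult in vivo MII oocytes, against 10.43 and 9.72 in GV oocytes. It fell by 2.29 ± 0.67 in vitro (adjusted p = 0.0186), and the in vivo difference of -1.38 was not called (adjusted p = 0.116). The lowest value of each adult MII group was on a dim array. Without adult in vitro replicate 2 the in vitro difference was -1.39 (adjusted p = 0.226), and without GV replicate 1 it was -1.97 (adjusted p = 0.14).

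Kifc1, a minus-end motor that gathers microtubules into poles, had 5.65 and 3.95 in adult in vitro MII oocytes, against 6.27 and 8.11 in GV oocytes. The groups did not overlap, but the GV arrays lay far apart. It fell by 2.39 ± 0.79 (5.24-fold, adjusted p = 0.0343), a call that was lost without GV replicate 2 (-1.43, adjusted p = 0.354) or without adult in vitro replicate 2 (-1.56, adjusted p = 0.281). In adult in vivo MII oocytes it had 5.65, 7.26 and 6.54, overlapping GV (difference -0.71, adjusted p = 0.545). Kifc5b is a close relative, and the signal of the 2 genes on this probe set cannot be told apart.

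Kif20a, which carries the chromosomal passenger complex to the midzone, had 8.52, 10.001 and 10.07 in adult in vivo MII oocytes and 9.48 and 8.89 in adult in vitro MII oocytes, against 8.37 and 7.77 in GV oocytes. All 5 adult MII arrays were above GV, and the dim in vivo array only narrowly. The in vivo rise of 1.46 ± 0.43 was called (2.75-fold, adjusted p = 0.02) and the in vitro difference of 1.11 ± 0.47 was not (adjusted p = 0.0964). The in vivo call was lost without in vivo replicate 2 (1.22, adjusted p = 0.0695), in vivo replicate 3 (1.19, adjusted p = 0.0798) or GV replicate 2 (1.19, adjusted p = 0.2).

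Of the remaining called mitotic members, Kif20b, which acts late in cytokinesis, rose by 1.21 ± 0.26 in vivo (adjusted p = 0.00291) and 1.28 ± 0.29 in vitro (adjusted p = 0.00354), with every MII array at 10.86 to 11.64 and GV arrays at 9.92 and 9.91. With median scaling Kif20b was at 1.02 (adjusted p = 0.0818) in vivo and 0.93 (adjusted p = 0.138) in vitro, and its other tested probe set was not called (1.14 and 0.84). Kif2a, a depolymerizer of microtubule ends at the poles, rose by 1.04 ± 0.30 in vivo (adjusted p = 0.0169) and 1.18 ± 0.33 in vitro (adjusted p = 0.0139). Its in vivo call was lost without either GV array or in vivo replicate 3, and its in vitro call without GV replicate 2 or in vitro replicate 1, with differences of 0.86 to 1.16. Kif18b, which shortens astral microtubules, fell by 1.69 ± 0.51 in vivo (adjusted p = 0.0227), and this call was lost without either GV array or in vivo replicate 1, at adjusted p-values of 0.0541 to 0.128. In vitro the Kif18b difference of -1.47 was not called. Some alternatives called Kif18b lower there, such as median scaling (-2.75, adjusted p = 0.0022), and others did not. Its highest MII array of any age, at 7.02, was below the lower GV array, at 7.72. Of 3 other tested Kif2a probe sets, 1 was called lower in vitro (-2.89, adjusted p = 0.0482). The rest were not called in either comparison.

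Kif11, the motor that slides antiparallel microtubules apart to keep the spindle bipolar, was not called. It had 7.45, 9.40 and 9.61 in adult in vivo MII oocytes and 8.89 and 6.01 in adult in vitro MII oocytes, against 8.24 and 7.45 in GV oocytes. Both comparisons overlapped, with differences of 0.97 (95% interval -0.67 to 2.61) and -0.40 (-2.19 to 1.39). Of its 2 other tested probe sets, 1 was called higher in vivo (2.06 ± 0.49, adjusted p = 0.00558) and neither was called in vitro.

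Kif23, the motor subunit of centralspindlin, had 11.96, 12.73 and 12.74 in adult in vivo MII oocytes and 12.34 and 11.48 in adult in vitro MII oocytes, against 11.999 and 11.97 in GV oocytes. Its differences of 0.49 (-0.16 to 1.15) and -0.07 (-0.79 to 0.65) were not called. Kif2c, which frees wrongly attached kinetochores, had 10.37, 10.64 and 10.06 in adult in vivo MII oocytes and 9.32 and 9.65 in adult in vitro MII oocytes, against 10.93 and 10.35 in GV oocytes. Only the in vitro arrays were clear of GV, and that difference of -1.15 narrowly missed the threshold (adjusted p = 0.0508). Kif15, a spindle motor that overlaps Kif11 in function, differed by 0.36 in vivo and 0.97 in vitro, neither called.

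**Figure D2:**
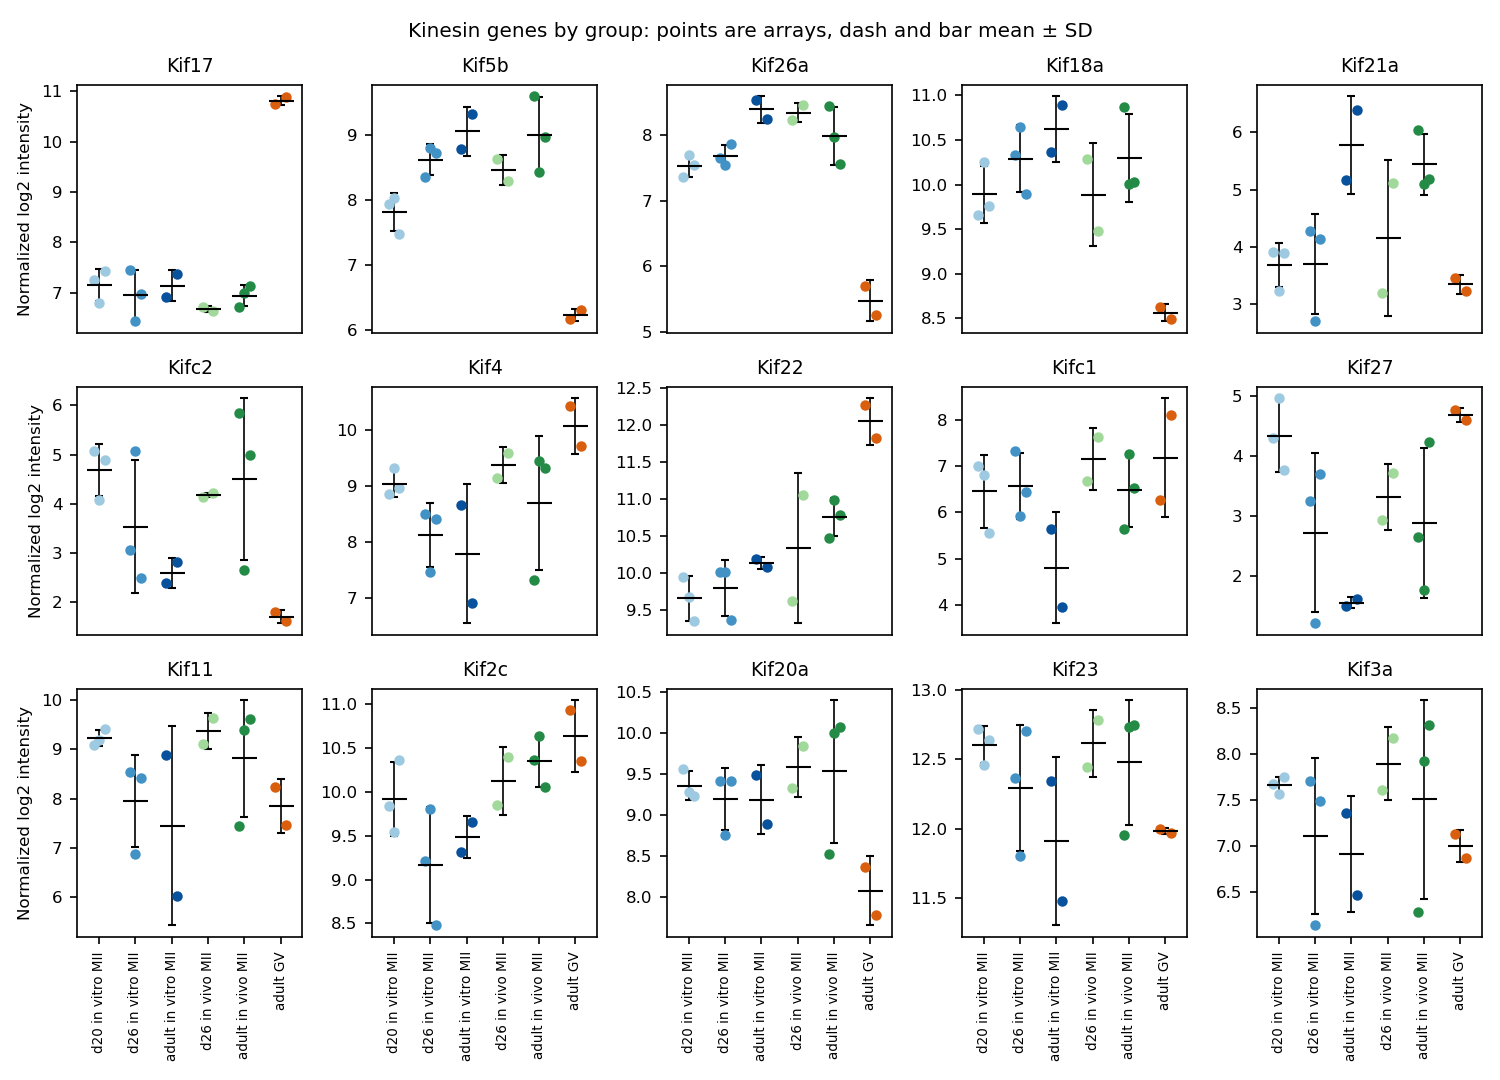
Normalized log2 intensity of 15 kinesin genes by group (points are arrays, the dash and bar are mean ± SD), each panel with its own vertical axis. Kif17, Kif22 and Kif4 had both GV arrays above every MII array, and Kif5b, Kif26a, Kif18a, Kif20a and Kifc2 had both below every MII array.

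Transport kinesins were called higher in adult in vivo MII oocytes in 5 of 16 cases (Kif1b, Kif5b, Kif5c, Kif21a and Kifc2) and lower in 1 (Kif17), with a median difference of 0.86. In adult in vitro MII oocytes 2 rose (Kif5b and Kif21a) and Kif17 fell, with a median of 0.17. The shares called, 37.5% and 18.8%, lay on either side of the 30.6% and 31.3% of all genes.

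Kif17, a motor that carries receptor vesicles in dendrites and also enters cilia, had the difference farthest from 0 of any tested kinesin in both comparisons. Its normalized log2 intensities were 6.72, 6.99 and 7.13 in adult in vivo MII oocytes and 6.92 and 7.37 in adult in vitro MII oocytes, against 10.75 and 10.89 in GV oocytes. The 8 MII arrays of younger females were at 6.43 to 7.45, so all 13 MII arrays lay within about 1 log2 unit of each other and more than 3 below GV. It fell by 3.87 ± 0.36 in vivo (14.7-fold, adjusted p = 7.94e-06) and by 3.68 ± 0.40 in vitro (12.8-fold, adjusted p = 2.58e-05). Another Kif17 probe set fell by 4.15 in vivo and 6.18 in vitro, both called, and the third differed by -1.71 and -2.76 without being called.

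Kif5b, the widely expressed heavy chain of conventional kinesin, had 9.59, 8.43 and 8.96 in adult in vivo MII oocytes and 8.79 and 9.31 in adult in vitro MII oocytes, against 6.17 and 6.30 in GV oocytes. The d20 and d26 MII arrays, at 7.48 to 8.80, were also all above GV. It rose by 2.76 ± 0.36 in vivo (6.77-fold, adjusted p = 8.6e-05) and 2.81 ± 0.40 in vitro (7.03-fold, adjusted p = 0.000163). Its 4 other tested probe sets differed by 1.40 to 2.31 in vivo, with 3 called, and by 0.79 to 2.85 in vitro, with 3 called.

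The other heavy chains behaved less clearly. Kif5c rose by 0.85 ± 0.28 in vivo (adjusted p = 0.0365) and differed by 0.78 ± 0.31 in vitro (adjusted p = 0.0749), and another Kif5c probe set was called higher in both (1.21 and 1.35). The in vivo call was lost without GV replicate 2 (0.60, adjusted p = 0.341) and without in vivo replicate 2 or 3. Kif5a, expressed mainly in neurons, lay near the filter level and was not called (0.94 and -1.31).

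Kif1b, which moves mitochondria and synaptic vesicle precursors, rose by 1.72 ± 0.46 in vivo (adjusted p = 0.0116), lost without GV replicate 2 (adjusted p = 0.102), and differed by 1.34 ± 0.50 in vitro (adjusted p = 0.061). The in vitro difference was 2.19 (adjusted p = 0.00741) without the dim in vitro replicate 2. Of its 6 other tested probe sets, 1 was called higher in both comparisons (2.08 and 1.26) and 5 were called in neither, at -1.15 to 1.12 in vivo and -1.33 to 0.95 in vitro.

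Kif21a, which slows microtubule growth at the cell cortex and in axons, had 6.05, 5.09 and 5.18 in adult in vivo MII oocytes and 5.17 and 6.39 in adult in vitro MII oocytes, against 3.46 and 3.23 in GV oocytes. Adult MII arrays were clear of GV, but MII arrays of younger females, at 2.70 to 5.12, overlapped it. It rose by 2.10 ± 0.73 in vivo (adjusted p = 0.0443) and 2.44 ± 0.80 in vitro (adjusted p = 0.0326). The in vivo call was lost on leaving out any adult in vivo, GV or d20 array, and the in vitro call without either GV array or in vitro replicate 2, with differences of 1.82 to 2.50. Neither of its other tested probe sets was called.

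Kifc2, a minus-end motor best known from neurons, had 5.85, 2.65 and 4.996 in adult in vivo MII oocytes and 2.38 and 2.80 in adult in vitro MII oocytes, against 1.79 and 1.60 in GV oocytes. The in vivo rise of 2.80 ± 0.96 passed the threshold (adjusted p = 0.0413) and the in vitro difference of 0.89 did not (adjusted p = 0.592). The GV values were below the filter level, and the call was lost in 14 of 24 alternative analyses, leaving out any adult in vivo array other than replicate 2, either GV array, either d26 in vivo array or any d20 array among them, with adjusted p-values of 0.0513 to 0.181 for those arrays.

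The heterotrimeric kinesin of intraflagellar and organelle transport was not called. Kif3a had 6.28, 7.93 and 8.31 in adult in vivo MII oocytes and 7.36 and 6.47 in adult in vitro MII oocytes, against 7.12 and 6.87 in GV oocytes. The MII arrays lay on both sides of GV (differences 0.51 and -0.09), and of 3 other tested Kif3a probe sets, 1 was called lower in both comparisons (-2.06 and -2.26) and 2 were called in neither. Its partners Kif3b (0.78 and 0.43) and Kif3c (0.87 and -0.16) were not called either. Among vesicle motors, Kif13a (1.30 and 1.42), Kif13b (-1.59 and -1.17), Kif16b (-0.45 and 0.97), Kif1c (-0.57 and -0.98), Kif21b (-0.24 and -1.50) and the Golgi motor Kifc3 (0.94 and -0.10) missed the threshold in vivo and in vitro, Kif13b in vivo with an adjusted p of 0.0588.

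Of the 6 other tested members, 1 rose in vivo and 1 rose and 1 fell in vitro. The shares called, 16.7% and 33.3%, stood beside 30.6% and 31.3% of all genes. Kif26a, an atypical kinesin that binds microtubules without working as a motor and restrains growth factor signalling in mouse enteric neurons, had 8.43, 7.96 and 7.56 in adult in vivo MII oocytes and 8.54 and 8.25 in adult in vitro MII oocytes, against 5.69 and 5.25 in GV oocytes. The remaining MII arrays were at 7.36 to 8.45, so all MII arrays were above GV. It rose by 2.51 ± 0.34 in vivo (5.71-fold, adjusted p = 0.000103) and 2.92 ± 0.37 in vitro (7.56-fold, adjusted p = 7.91e-05).

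Kif27, a relative of the hedgehog regulator Kif7 that is needed for motile cilia, had 1.50 and 1.62 in adult in vitro MII oocytes and 2.65, 1.77 and 4.23 in adult in vivo MII oocytes, against 4.77 and 4.61 in GV oocytes. The fall of 3.13 ± 1.04 in vitro was called (adjusted p = 0.0352) and the in vivo difference of -1.80 was not (adjusted p = 0.191). Both in vitro values were below the filter level, and the call was lost without either array of the 2 groups or d20 replicate 1, at adjusted p-values of 0.0503 to 0.153. Kif24, which holds back cilium formation at the centriole, gave 6.30 and 1.25 on the adult in vitro arrays, the lower one on a dim array (-2.43, adjusted p = 0.127). Kif6, Kif12 and Kif26b were not called, although another Kif12 probe set was called higher in both comparisons (3.60 and 4.44).

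In every call against GV, 24 in all, the MII and GV arrays did not overlap. Non-overlap was common, however, seen for 58.4% of all tested genes in vivo and 68.7% in vitro, and for 20 and 26 of the 34 kinesins. When the 4 dim arrays were left out, a choice made after seeing the data, 14 kinesins rose and 5 fell in vivo, beside 26.2% and 16.8% of all genes. Kif9 was then a 35th tested member and was not called in vivo. In vitro only adult replicate 1 was left to set against GV, so the in vitro counts are not compared with all genes. The kinesins that joined the in vivo rise included Kif11 (1.60, adjusted p = 0.00158), Kif23 (0.68, adjusted p = 0.00392), Kif3a (1.12, adjusted p = 0.0123) and Kif3b (1.69, adjusted p = 0.00971). For each of these 4 genes, the lowest array of the adult in vivo, adult in vitro and d26 in vitro groups was a dim one. In part this follows from how they were picked, since they joined once the dim arrays were removed. Most d26 in vitro arrays were dim, and the share of all genes with this pattern is not given.

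**Figure D3:**
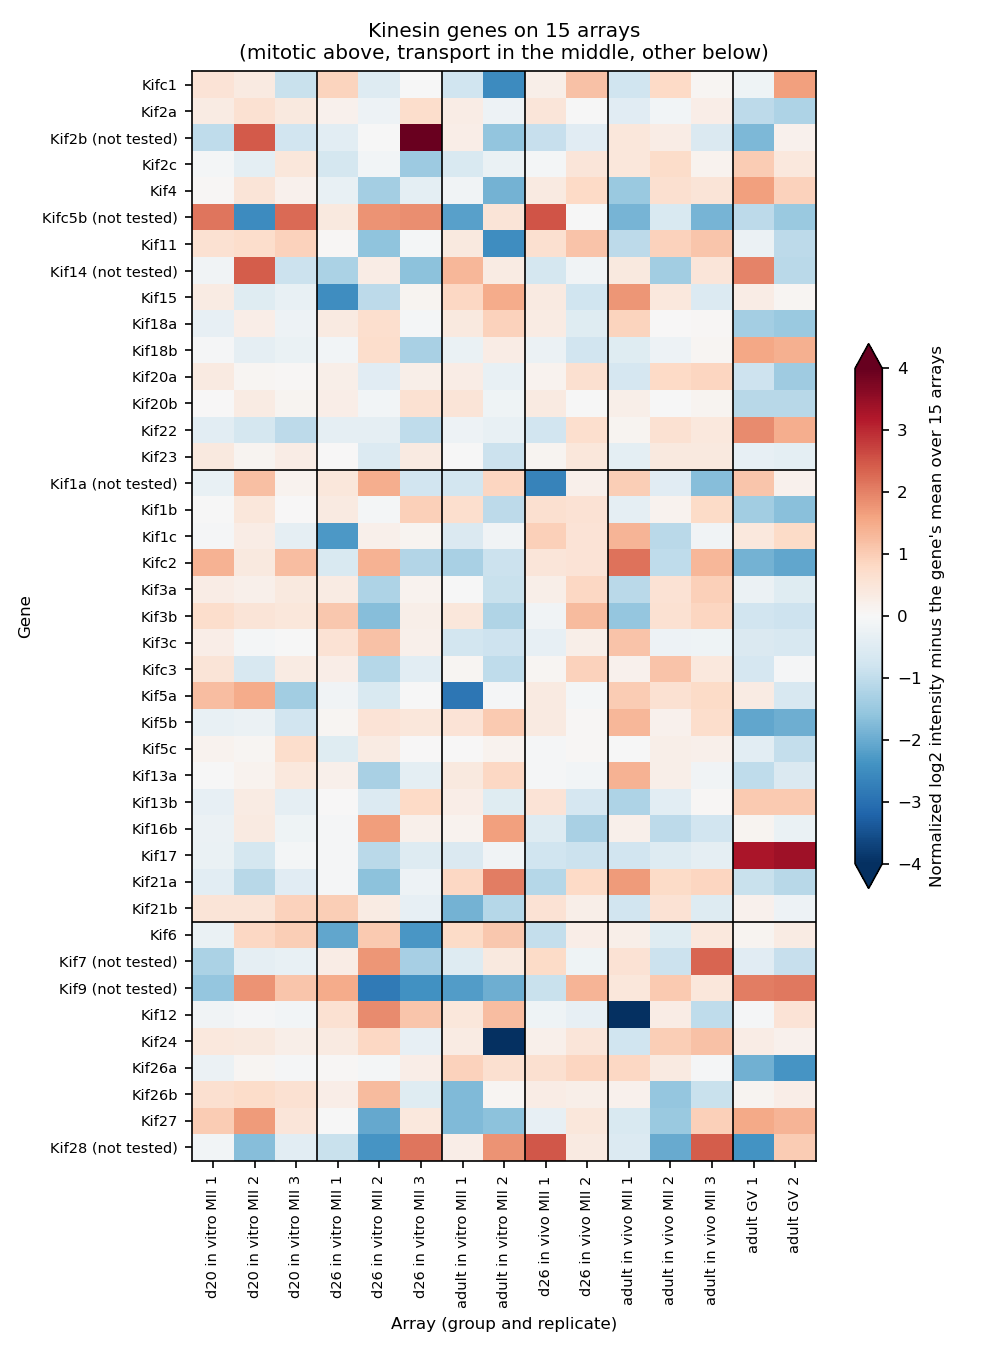
Normalized log2 intensity of the 41 kinesin genes on 15 arrays, each minus the gene's own mean over all arrays, with mitotic members above, transport members in the middle and others below. The right-hand pair of GV columns stands apart for Kif17, Kif22, Kif5b and Kif26a, and single dark cells within a group, such as Kif24 on adult in vitro replicate 2, show arrays that differ from their replicates.

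The next comparisons ask whether the way of maturation left different kinesin messages in MII oocytes. None of the 34 kinesins was called between in vitro and in vivo MII oocytes in adults (background 0%), in d26 females (0.0582%), in the mean of both ages (0.249%) or in the difference between the ages (0%). The smallest limma adjusted p-values were 0.558, 0.641, 0.192 and 1, and unadjusted p-values below 0.05 were seen for 7, 2, 8 and 2 of the 34 kinesins, beside 8.14%, 7.27%, 13.5% and 3.48% of all tested genes. In vitro and in vivo arrays did not overlap for 9 of 34 kinesins in adults and 7 in d26 females, beside 18.7% and 20.1% of all tested genes. In the mean of both ages the lowest difference was -1.40 (Kif11). The highest, 1.99 for Kif12, is not a precise value, since adult in vivo MII arrays averaged 2.00 ± 2.36 (SD, n = 3) for this gene, below the filter level. For 11 of the 34 kinesins the 95% interval lay within 1 log2 unit of 0. For the others the interval reached beyond a 2-fold difference.

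The kinesin with the smallest p in that mean was Kif16b, a motor of early endosomes, at 1.46 (95% interval 0.58 to 2.34, adjusted p = 0.192). It had 6.80, 8.52 and 7.06 in d26 in vitro MII oocytes, against 6.35 and 5.57 in d26 in vivo MII oocytes, and 7.01 and 8.50 in adult in vitro MII oocytes, against 7.07, 5.82 and 6.10 in adult in vivo MII oocytes. The d26 groups did not overlap, the adult groups did, and the 2 highest values were on dim arrays. Kif2c was next at -0.91 (-1.48 to -0.34, adjusted p = 0.213). Its d26 in vitro arrays had 9.21, 9.81 and 8.48, against 9.85 and 10.40 in d26 in vivo MII oocytes, and in adults the in vitro arrays were likewise all below the in vivo ones.

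Of 12 tested mitotic members, 5 had an unadjusted p below 0.05 in that mean, beside 8 of all 34 kinesins and 13.5% of all tested genes. All 5 were lower in vitro: Kifc1 (-1.14), Kif2c (-0.91), Kif4 (-1.08), Kif11 (-1.40) and Kif22 (-0.58). None of the 5 had an adjusted p under 0.213. Median differences in that mean were -0.40 for mitotic, -0.23 for transport and -0.07 for other kinesins, -0.48 for tubulins and -0.06 over all tested genes. A negative median was thus not particular to mitotic members. The low in vitro values of Kif4 and Kif11 were on dim arrays, whose part in the difference was not tested. Leaving out the 4 dim arrays cannot decide it. No kinesin was called with them included, and without them only replicate 1 was left in the adult and d26 in vitro groups.

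The last comparisons ask whether the age of the female changed kinesin messages in MII oocytes matured in vitro. None of the 34 kinesins was called for d26 against d20 (background 0%), adult against d26 (0%) or adult against d20 (0.0333%). The smallest limma adjusted p-values were 0.417, 0.466 and 0.14, and unadjusted p-values below 0.05 were seen for 2, 7 and 11 of them, beside 12%, 7.36% and 19.2% of all tested genes. Groups did not overlap for 5, 8 and 17 of the 34, beside 19.6%, 16% and 43.5% of all tested genes. For adult against d20 the differences ran from -2.79 (Kif27) to 2.11 (Kif21a), the Kif27 values of the adult arrays being below the filter level, and 3 intervals lay within 1 log2 unit of 0.

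Kif21b, a relative of Kif21a that paces microtubule growth in neurons, had the smallest p between ages. It had 5.73, 5.72 and 6.11 in d20, 6.20, 5.54 and 4.87 in d26 and 3.32 and 4.08 in adult in vitro MII oocytes. The adult arrays lay below all others, with a difference from d20 of -2.15 (95% interval -3.33 to -0.98, adjusted p = 0.14). Kif5b had 7.94, 8.03 and 7.48 in d20, 8.34, 8.80 and 8.71 in d26 and 8.79 and 9.31 in adult oocytes. Its adult and d20 arrays did not overlap (1.23, 0.46 to 2.01, adjusted p = 0.172), and neither did those of d26 and d20 (0.80, 0.11 to 1.50, adjusted p = 0.417).

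Kif21a had 3.90, 3.23 and 3.89 in d20, 4.27, 2.70 and 4.14 in d26 and 5.17 and 6.39 in adult in vitro MII oocytes. Adult arrays were above both younger groups without overlap, by 2.11 (0.56 to 3.66, adjusted p = 0.196) against d20. Kif26a had 7.36, 7.69 and 7.54 in d20, 7.65, 7.54 and 7.87 in d26 and 8.54 and 8.25 in adults, a difference of 0.86 (0.14 to 1.59, adjusted p = 0.227) between adult and d20. Kif17 did not separate the ages, with 7.25, 6.81 and 7.42 in d20, 7.45, 6.43 and 6.98 in d26 and 6.92 and 7.37 in adult in vitro MII oocytes.

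**Figure D4:**
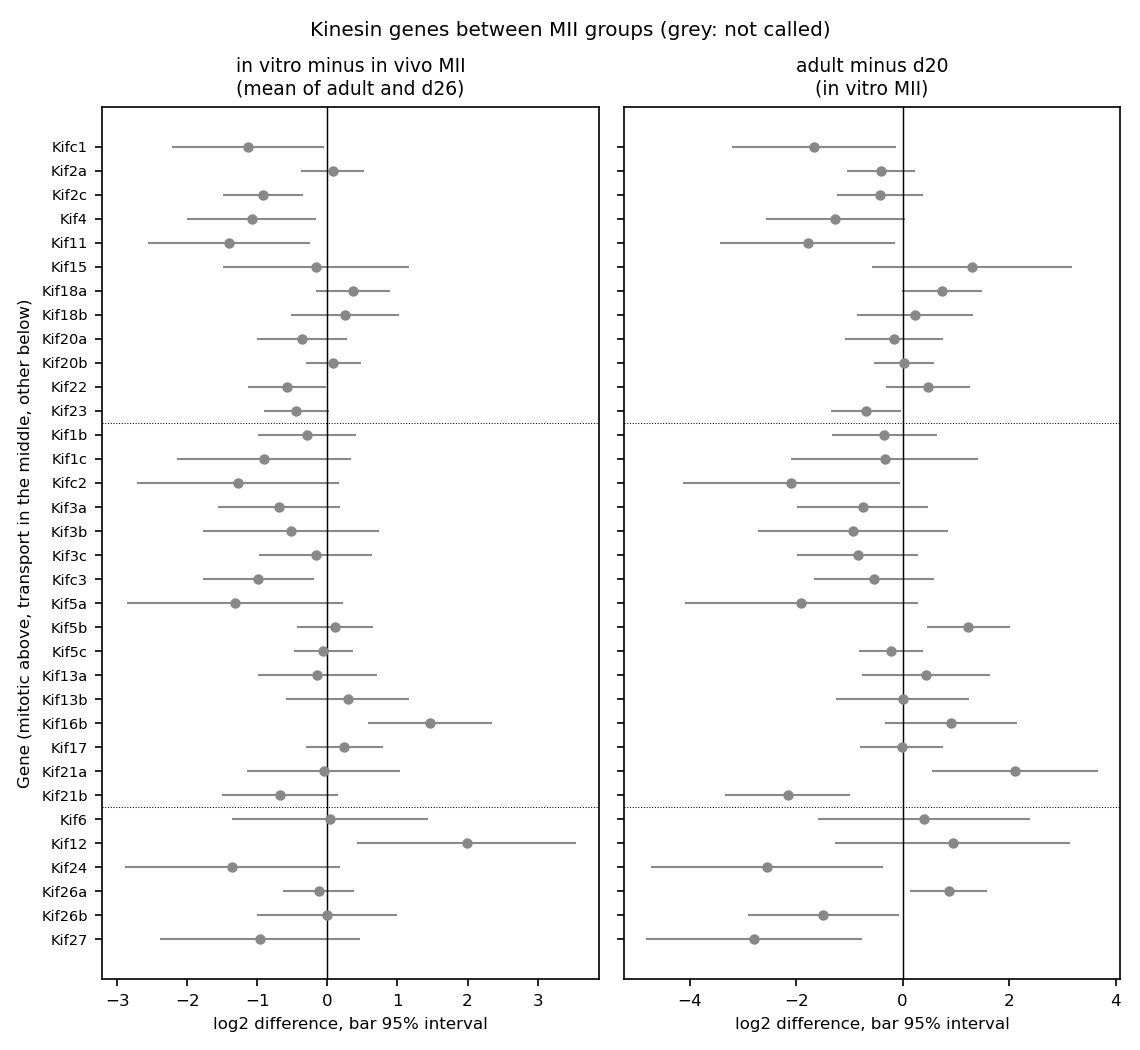
Log2 difference of each tested kinesin (points, bars are 95% intervals) for in vitro minus in vivo MII oocytes as the mean of adult and d26 differences (left) and for adult minus d20 in vitro MII oocytes (right). All points are grey because none was called, and Kif16b and Kif12 (left) and Kif21a, Kif21b and Kif27 (right) are among those with intervals clear of 0.

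Some calls between MII groups appeared in alternative analyses. Without adult in vitro replicate 1, which left a dim array alone in that group, Kif24 was called lower in adult in vitro MII oocytes against adult in vivo (-5.20, adjusted p = 0.00442), d26 in vitro (-5.04, adjusted p = 0.0053) and d20 in vitro MII oocytes (-5.10, adjusted p = 0.00373). Kif11 was called lower there against d20 (-3.21, adjusted p = 0.0416), and Kif24, Kif11 and Kif16b were called in the mean of in vitro minus in vivo (-2.63, -2.11 and 1.83). Without the 4 dim arrays Kif21b (-2.72, adjusted p = 0.0319) and Kif26b (-2.60, adjusted p = 0.0202) were called lower in adult than in d20 oocytes, with 1 adult array assumed to vary like the other groups.

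Genes that work with the kinesins were read from lists of partners. Of 23 tested spindle partners of the mitotic kinesins, 4 rose and 4 fell in adult in vivo MII oocytes and 6 rose and 4 fell in adult in vitro MII oocytes relative to GV. The shares called, 34.8% and 43.5%, stood beside 30.6% and 31.3% of all genes. Racgap1, the centralspindlin partner of Kif23, rose by 1.85 ± 0.31 in vivo and 1.50 ± 0.34 in vitro. Among chromosomal passenger subunits, which Kif20a carries, Birc5 fell by 2.88 in vivo and 2.80 in vitro, and Incenp by 1.07 and 1.21. Values of Aurkb, Aurkc and Cdca8, also on the list, are not given here, so these falls do not speak for the whole complex. The microtubule bundler Nusap1 fell by 3.32 and 4.18, and the kinetochore subunit Ndc80 rose by 1.60 and 1.46.

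Of 19 tested light chains and cargo adaptors of the transport kinesins, 1 rose and 2 fell in each of the 2 comparisons with GV, a share of 15.8% that was below that of all genes. Rab6a, a Golgi GTPase that binds Kif20a and other kinesins, rose by 1.06 ± 0.19 in vivo and 1.33 ± 0.21 in vitro. Madd, an adaptor that links Kif1b to synaptic vesicles, fell by 2.72 ± 0.58 in vivo and 2.07 ± 0.64 in vitro.

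The opposing motor, cytoplasmic dynein with dynactin, had 2 of 23 tested genes higher and 6 lower in vivo and 2 higher and 10 lower in vitro, with median differences of -1.09 and -1.16, while 18.3% of all genes rose and 12.3% fell in vivo and 18.4% rose and 12.9% fell in vitro. Of 14 tested tubulins, the track itself, 1 rose and 6 fell in each comparison with GV, with medians of -1.48 and -2.20 and 50% called. The medians of the 34 kinesins, 0.50 and -0.08, stood beside 0.26 and 0.13 for all tested genes, and the difference between these lists was not tested. Bicd2, a dynein adaptor, was the single gene of these lists called lower in the mean of in vitro minus in vivo MII oocytes (-1.27 ± 0.18, adjusted p = 0.0118).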

How the data were processed

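Biotin-labelled cRNA, made from poly(A) RNA over a pair of amplification cycles per the labels' protocols, was hybridized to Affymetrix arrays. The deposited values are intensities, and the submitters' processing notes name MAS5, with no version given in the sources used here. Log2 of the deposited intensities was quantile-normalized over 15 arrays after 64 control probe sets were left out. The upper 50% by mean (22519 probe sets, 12028 genes) were tested in R 4.3.3 with limma 3.58.1, using a coefficient for each group, an intensity trend, 9 residual degrees of freedom and Benjamini-Hochberg adjustment. The model was also run on simulated arrays with independent noise and few changed probe sets, without the normalization step. Those arrays lacked the uneven brightness of the data, so they do not bear on how the calls depend on scale. The number of arrays limits the precision.

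Of all probe sets, 34958 had 1 symbol, 932 several and 9211 none, and 34754 of the single symbols were brought up to date by gene identifier. Motifs were searched in RefSeq windows, which 33 of 41 members had. The members and gene lists were chosen with earlier results of these data known. Array values are given for members called against GV with a log2 difference of at least 2 and for Kif11, Kif2c, Kif18a, Kif20a, Kif22, Kif23, Kif4, Kifc1, Kif3a and Kif5b. Values of Kif16b, Kif21b, Kif24 and, between ages, of others were added after their values were seen. Alternatives were the deposited scale, median scaling, no filter, the upper 30%, a pseudocount of 16, the compared arrays alone, no trend, array weights, a block of 2 levels on the number in the sample titles, whose meaning is not given and which pairs no samples, and each array left out.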

Additional observations from a re-analysis of the deposited data

How the results depend on the processing

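Kif17 in both comparisons with GV and Kif22 in vitro kept their calls in all 25 alternatives, and Kif18a, Kif5b and Kif26a lost theirs with values as deposited alone. On that scale 0 kinesins rose and 5 fell in vivo, and 0 rose and 13 fell in vitro. The sign turned there for Kif2a (-0.0418), Kif20a (-0.15) and Kif5c (-0.19) in vivo, and for Kif2a (-0.70), Kif18a (-0.0928), Kif20b (-0.48) and Kif5b (-0.0358) in vitro, where the median gene shifted by -0.98 and -1.95. Median scaling gave 4 higher and 5 lower in vivo, 3 higher and 12 lower in vitro, and 1 kinesin called between in vitro and in vivo MII in the mean of both ages, Kif2c (-1.40, adjusted p = 0.0433). The compared arrays alone gave 6 higher and 3 lower in vivo, and array weights 15 higher and 6 lower in vivo. The pseudocount of 16 gave 6 higher and 8 lower in vitro. The shares of all genes are not given for these settings or for the single arrays left out. These counts therefore do not set the kinesins apart from other genes. The 13, 12 and 8 lower in vitro each include Kif9, which these scales brought past the filter as a 35th member. Without the 4 dim arrays, an alternative chosen after seeing the data, 5 were lower in vivo. In vitro 9 with Kif9 were lower, and 2 were called for adult against d20. The 9 and the 2 rest on 1 adult in vitro array, so no conclusion is drawn from them. Leaving out each array in turn gave 4 to 10 higher and 1 to 4 lower in vivo, and 4 to 8 higher and 2 to 8 lower in vitro, the 8 again with Kif9 and without d26 in vitro replicate 2 or 3. The 4 higher in vivo came without GV replicate 2, the 1 lower in vivo without GV replicate 1 and the 2 lower in vitro without adult in vitro replicate 2. The same omissions gave 0 to 1 calls for adult in vitro against adult in vivo MII, 0 to 3 for the mean of both ages, 0 to 1 for adult against d26, 0 to 2 for adult against d20 and 0 elsewhere. Beyond the scale and the omitted arrays, the cause was not tested. No paired analysis was possible because the labels number no pairs of pools across the groups, replicate numbers here being names alone. Values near the filter level, as for Kifc2, Kif27 and Kif21a, and groups of 2 or 3 arrays limit what could be called.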
